A study of Homo sapiens with 4 samples.

Results

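The glycolysis and hypoxia response genes are 39 genes chosen by symbol: 4 glucose and lactate transporters, 15 glycolytic enzymes, 2 enzymes of fructose 2,6-bisphosphate, 3 genes of pyruvate fate, 4 genes for HIF subunits and their prolyl hydroxylases, and 11 other hypoxia response genes. All 39 were found among the 33694 genes of the matrices. They were measured in OVCA420, an established human ovarian cancer cell line, by droplet single-cell RNA-seq of the 3′ ends of transcripts. The Ctrl library came from cells without TGF-β1, and the 1-day, 3-day and 7-day libraries came from cells given 10 ng/mL TGF-β1, a cytokine that drives epithelial-mesenchymal transition (EMT), for these times. TGF-β1 was renewed every 2 days, passage continued where needed, and the treatments were started so that all collections fell together. Every time point is 1 library of 1 cell line, so no test was possible and no p-value is given, and an effect of time cannot be told apart from a difference between libraries.

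Glycolysis splits glucose to pyruvate in the cytosol. Lactate dehydrogenase can turn pyruvate into lactate, which monocarboxylate transporters carry out of the cell. HIF-1α and HIF-2α, encoded by *HIF1A* and *EPAS1*, are transcription factors whose proteins are marked for destruction by oxygen-dependent prolyl hydroxylases. When oxygen is short they accumulate and raise the transcription of glucose transporters, glycolytic enzymes and genes for blood vessel growth, mitophagy and matrix folding. Regulation of the HIF proteins is mainly after translation, and mRNA levels do not measure it.

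Levels are CPM (counts per 1000000 UMIs of the library) of unique molecular identifiers (UMIs, each standing for 1 captured molecule) summed over the cells of a library. A UMI is counted at the 3′ end, so that levels of different genes are not scaled by transcript length. The retained cells numbered 569 to 937 per library and gave 25382817 to 32949874 UMIs, with medians of 30270 to 43553 UMIs per cell. These cells are the first part of each library in barcode order, and their sums are not its full depth. Median mitochondrial shares were 6.22% to 8.31%, and 23 of the barcodes analysed were shared between pairs of libraries. Cells called in G1 made up 29.9% of the Ctrl library, then 74.4%, 48.5% and 37.4% of those after 1, 3 and 7 days. Ratios of the members to Ctrl were therefore also computed in G1 cells alone, where *SLC2A3*, *ENO2* and *CA9* gave none. All 8 epithelial markers were above 5 CPM in every library (summed 4318 to 5955 CPM), whereas the 5 ovarian carcinoma markers, MUC16 among them, were all under 5 CPM (at most 2.97 CPM). Summed markers of other cells were 5.07 to 14.1 CPM for 6 immune genes, 0.311 to 5.40 CPM for 4 endothelial genes and 0.315 to 1.37 CPM for 5 fibroblast genes. *PTPRC*, *CLDN5* and *COL3A1* were at 0 in 3, 4 and 4 libraries. Above 5 CPM were *CD68* and *CD79A* at 7-day (6.2 and 7.88 CPM) and *CDH5* in Ctrl (5.37 CPM). Their part in the results was not tested. The 8 reference genes of the TGF-β1 response summed to 532 CPM in Ctrl against 3903, 3486 and 2260 CPM after 1, 3 and 7 days. *ID1*, 1 of the 8, was lower (270 CPM in Ctrl against 108, 62.9 and 73.2 CPM), and the others were higher at each time.

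Of the 39 genes, 31 had a mean of at least 5 CPM over the libraries and are counted below. The other 8 (*SLC2A3*, *HK2*, *ALDOC*, *ENO2*, *PFKFB4*, *PDK1*, *CA9* and *ANKRD37*) are given by their values. For the 31 counted genes the 95% Poisson interval of a level spanned a median of ± 4.91% of it, from ± 0.686% for *GAPDH* at 1-day to ± 31.6% for *SLC16A3* in Ctrl. Ratios between libraries are given on the log2 scale with exact conditional 95% intervals in brackets, and a gene is called higher or lower where its ratio passed 1.5-fold. All intervals cover counting error only, not the spread between cultures. Those of levels, ratios and shares of UMIs also leave out the spread of a gene over cells.

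At 1-day, 11 of the 31 genes were higher than in Ctrl and 4 were lower, where 16.6% of 9659 genes tested were higher and 19.4% were lower. The 3-day library had 9 higher and 4 lower, beside 18.8% and 12.5% of all genes. By 7-day 11 were higher and 5 were lower, beside 21.5% and 10.8%. The median log2 ratio of the 31 genes to Ctrl was 0.08, 0.15 and 0.30 at 1, 3 and 7 days, and that of all tested genes was -0.06, 0.04 and 0.10. Between time points, 6 genes were higher and 4 lower at 3-day than at 1-day (14.0% and 6.49% of all genes), and 2 were higher and 2 lower at 7-day than at 3-day (4.77% and 2.9%). With median-of-ratios scaling the background at 1-day changed to 19.2% higher and 16.3% lower, with the members at 11 and 4, and the last background changed to 3.59% higher and 3.95% lower, while the members numbered 2 and 2.

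The genes did not change as a block. The highest level was that of Ctrl for 8 genes, of 1-day for 9, of 3-day for 4 and of 7-day for 10. Of the 31, only *SLC16A3*, *HIF1A* and *ERO1A* were higher at each successive time with intervals that left out 0, and only *ALDOA* and *LDHB* were lower at each. For *ALDOA* the first step was small, at -0.07, and was 0.02 with median-of-ratios scaling. The counts of this paragraph were not made over all tested genes, so they describe the members without a background.

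**Figure D1:**
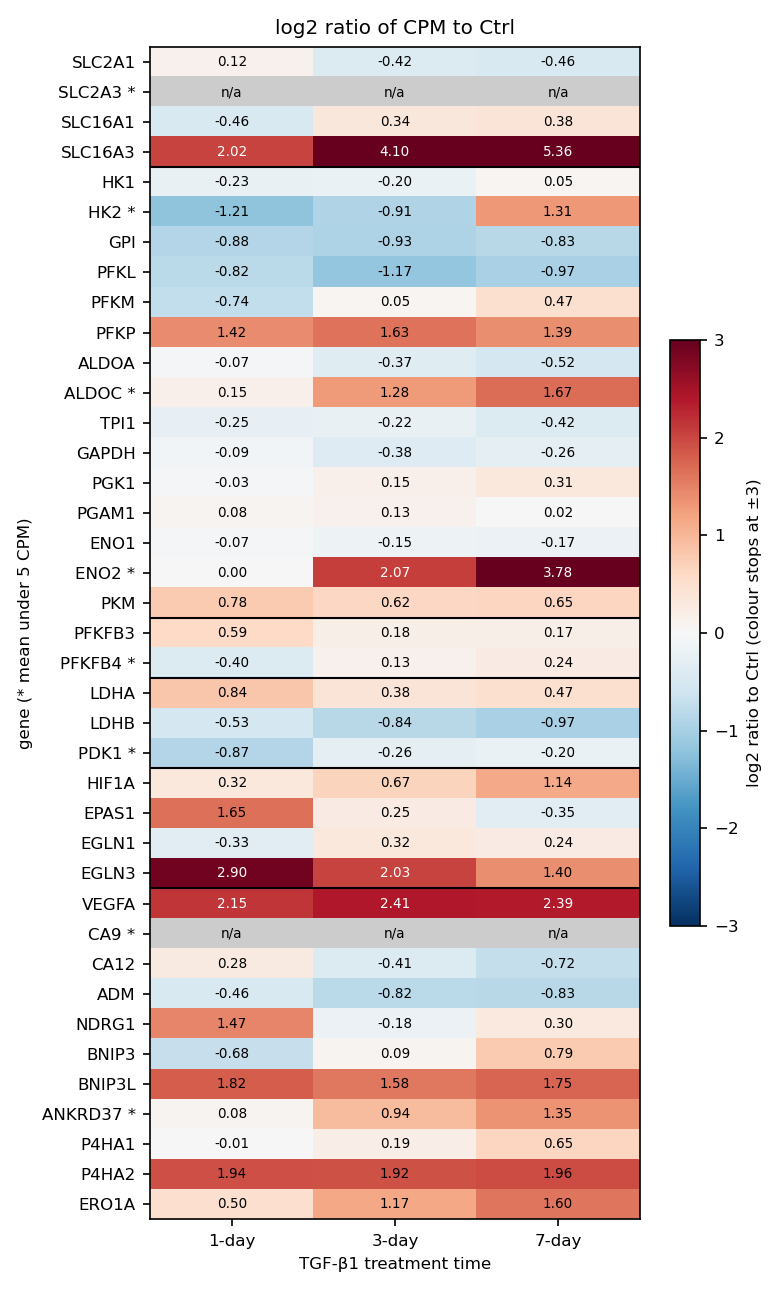
Log2 ratio of CPM to Ctrl (colour and printed value) for the 39 genes (rows, grouped by role) at 1, 3 and 7 days of TGF-β1 (columns), with 1 library each. Grey marks genes with no ratio, and an asterisk marks a mean under 5 CPM. The darkest cells are *SLC16A3*, reaching 5.36, and *ENO2*, reaching 3.78 at 7-day.

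**Figure D2:**
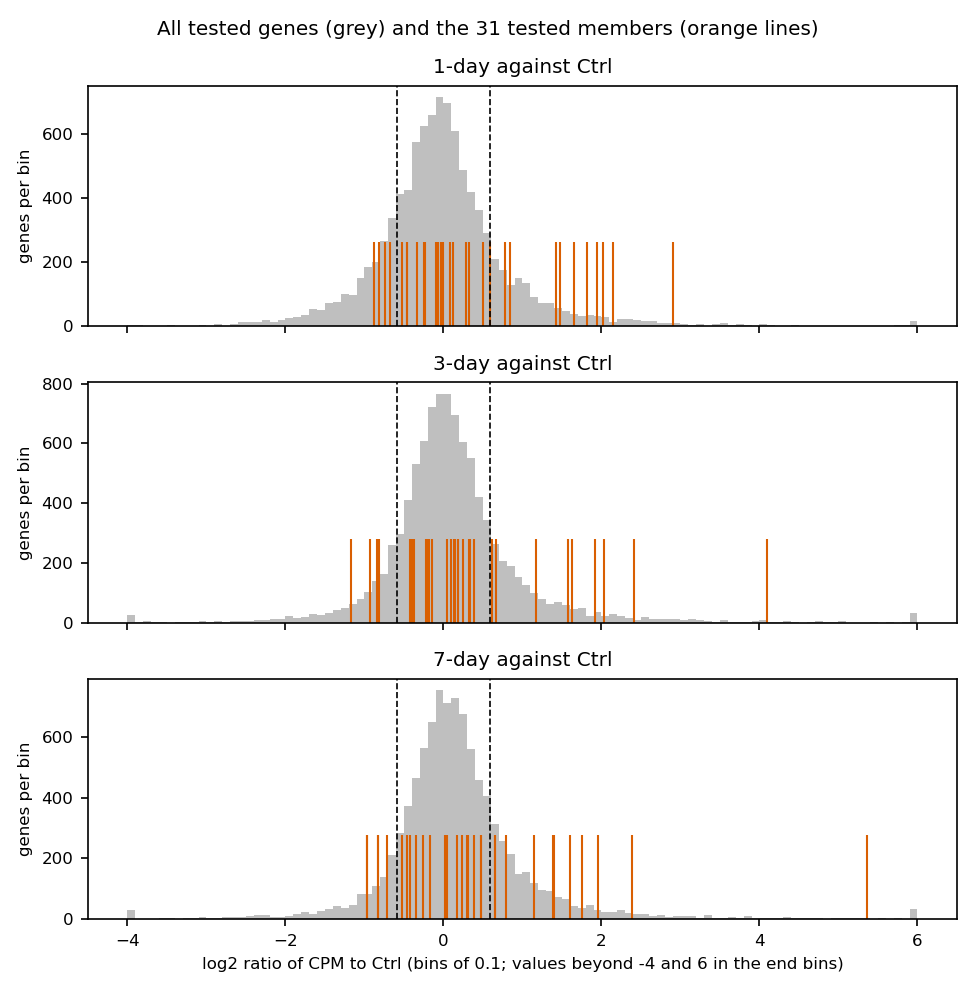
Distribution of log2 ratios to Ctrl over the 9659 tested genes (grey histogram, genes per bin) at each time, with orange lines at the ratios of the 31 tested members and dashed lines at 1.5-fold. Members lie on both sides of 0 and within the range of all genes at each time.

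The promoters of the members were examined for the core of the hypoxia response element, ACGTG, on both strands of the 250 bases before the RefSeq start site. A promoter entry was at hand for 34 of the 39 genes, not for *SLC2A3*, *SLC16A1*, *VEGFA*, *NDRG1* and *BNIP3L*. ACGTG was found in 14 of the 34 (41.2%), in 18.5% of 35116 promoters of all genes and in 20.2% of 22199 promoters of protein-coding genes. The looser core GCGTG was found in 38.2% of the members' promoters, in 32.2% of all and in 38.3% of protein-coding ones. Below are the bases from 190 to 61 before the start of 6 genes, chosen because they show different time courses, with ACGTG on either strand in capitals. CACGTG, which reads the same on both strands, gives a pair of overlapping matches. *LDHA* (chr11:18394373-18394502, plus strand) was highest at 1-day and held 5 matches, *BNIP3* (chr10:131981984-131982113, minus strand) was lowest at 1-day and highest at 7-day and held 2, and *ANKRD37* (chr4:185396651-185396780, plus strand) held 3. *PGK1* (chrX:78104058-78104187, plus strand), which changed little, held 2, the first at position -202 relative to the start and so ahead of the stretch shown. *SLC16A3* (chr17:82228245-82228374, plus strand) and *PFKP* (chr10:3067780-3067909, plus strand), which had the largest ratios of the transporters and of the counted enzymes, held none of these letters in the window. A single start per gene was scanned, and the stretches of *ANKRD37*, *PGK1*, *SLC16A3* and *PFKP* lie inside the annotated span of their gene, so that other starts were not examined. Positions are those of GRCh38.p14, and a match describes the sequence only. The members were chosen as glycolysis and hypoxia response genes, so their share of promoters with ACGTG is not a result of these libraries.
LDHA: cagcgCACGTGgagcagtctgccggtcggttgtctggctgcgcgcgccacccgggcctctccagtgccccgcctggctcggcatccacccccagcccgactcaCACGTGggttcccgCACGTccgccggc
BNIP3: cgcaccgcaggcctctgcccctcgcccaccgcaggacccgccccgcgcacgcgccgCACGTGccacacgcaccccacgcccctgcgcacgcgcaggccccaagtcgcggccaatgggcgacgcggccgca
ANKRD37: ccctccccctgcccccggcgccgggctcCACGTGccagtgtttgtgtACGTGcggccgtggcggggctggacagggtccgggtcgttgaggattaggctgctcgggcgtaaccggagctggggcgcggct
PGK1: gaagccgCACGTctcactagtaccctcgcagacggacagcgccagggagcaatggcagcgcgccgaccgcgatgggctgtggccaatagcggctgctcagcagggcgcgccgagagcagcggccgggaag
SLC16A3: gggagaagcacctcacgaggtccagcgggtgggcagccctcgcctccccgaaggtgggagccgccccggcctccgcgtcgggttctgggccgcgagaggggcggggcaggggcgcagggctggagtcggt
PFKP: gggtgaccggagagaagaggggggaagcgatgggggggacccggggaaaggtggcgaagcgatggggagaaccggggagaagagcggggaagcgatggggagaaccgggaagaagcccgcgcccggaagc

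Among the transporters, the lactate exporter gene *SLC16A3* (MCT4; chromosome 17, 82217934 to 82261129, plus strand) had the largest ratio of all members. Its level was 1.40 CPM in Ctrl, then 5.67, 23.96 and 57.7 CPM after 1, 3 and 7 days, from 42, 187, 770 and 1464 UMIs. Each time point stood above the one before it, and the log2 ratios to Ctrl were 2.02 [1.53 to 2.54], 4.10 [3.65 to 4.58] and 5.36 [4.92 to 5.84]. *SLC16A1* (MCT1), which carries lactate in either direction, was at 37.4, 27.2, 47.3 and 48.8 CPM, so that its lowest level was at 1-day and its ratio to Ctrl did not pass 1.5-fold (0.34 at 3-day and 0.38 at 7-day, against 0.60 and 0.63 in G1 cells). *SLC16A3* therefore made up 3.61% of the UMIs of the pair in Ctrl, then 17.3%, 33.6% and 54.2% [52.3 to 56.1] after 1, 3 and 7 days. In G1 cells alone these shares were 5.49%, 19.4%, 39% and 63.0%.

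Glucose uptake genes among the members did not show this course. *SLC2A1* (GLUT1), the widely expressed glucose transporter and a known HIF target, was at 115 CPM in Ctrl, then 124, 86.1 and 83.3 CPM after 1, 3 and 7 days. Its 3-day and 7-day levels were lower by less than 1.5-fold, with log2 ratios of -0.42 and -0.46, although in G1 cells the 7-day ratio was -0.62. *SLC2A3* (GLUT3) gave 3 UMIs in Ctrl and then 0, 1 and 0 after 1, 3 and 7 days, too few for a ratio.

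The 15 glycolytic enzymes together took 5688 CPM in Ctrl, then 5898, 5245 and 5306 CPM after 1, 3 and 7 days. Their summed level thus differed from Ctrl by log2 0.05 [0.04 to 0.06], -0.12 [-0.13 to -0.11] and -0.10 [-0.11 to -0.09]. *GAPDH* supplied the largest part, and without it the sums were 3121, 3491, 3270 and 3164 CPM. The 3-day and 7-day sums were then above Ctrl, by log2 0.07 [0.05 to 0.08] and 0.02 [0.01 to 0.03]. With scaling to CPM, the lower direction at these times thus turned when this 1 gene was left out. *PKM*, the largest of the genes left, was above Ctrl at both times (0.62 and 0.65), as were *PFKP* and *PGK1*. *GPI*, *PFKL*, *ALDOA*, *TPI1* and *ENO1* were below it at both. A sum without *PKM* was not computed, nor was the sum without *GAPDH* under other scaling. Median-of-ratios scaling moved the 7-day sum of the 15 enzymes from -0.10 to -0.16, so that the 7-day direction without *GAPDH* is not settled. Of the 12 counted enzymes, 2 were higher and 3 lower at 1-day, and 2 were higher and 2 lower at 3-day and at 7-day. These are 16.7% higher and 25.0% lower at 1-day and 16.7% each way later, near the shares of all tested genes (16.6% and 19.4%, 18.8% and 12.5%, 21.5% and 10.8%). *PFKP* and *PKM* were the higher ones at each time, and *GPI* and *PFKL* the lower ones, joined at 1-day by *PFKM*.

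The upper steps begin with hexokinase. *HK1*, the hexokinase that traps glucose as its phosphate, stayed between 23.7 and 28.8 CPM in all 4 libraries. The hexokinase-domain gene *HKDC1*, outside the member list and added after its values were seen, was at 11.0, 41.3, 33.0 and 18.6 CPM. It was thus above *HK1* at 1-day and 3-day, with log2 ratios to Ctrl of 1.91, 1.58 and 0.75 at 1, 3 and 7 days. *HK2*, the inducible hexokinase, was near the detection limit at 0.70 CPM in Ctrl, then 0.303, 0.373 and 1.73 CPM after 1, 3 and 7 days (21, 10, 12 and 44 UMIs), and 10 cells held 95.2% of the Ctrl and 43.2% of the 7-day molecules. *HK2* was thus at most 5.68% [4.16 to 7.55] of the hexokinase UMIs of the pair. *GPI*, which converts glucose 6-phosphate to fructose 6-phosphate, was at 170.5 CPM in Ctrl against 92.9, 89.4 and 96.1 CPM after 1, 3 and 7 days. All 3 treated libraries were below Ctrl and close to each other, with log2 ratios of -0.88 [-0.94 to -0.81], -0.93 [-1.0 to -0.86] and -0.83 [-0.90 to -0.76].

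Phosphofructokinase, the committed step of glycolysis, differed in the make-up of its genes. *PFKP*, the platelet-type gene (chromosome 10, 3066333 to 3137718, plus strand), was at 33.4 CPM in Ctrl against 89.4, 103 and 87.3 CPM after 1, 3 and 7 days. *PFKL*, the liver-type gene, was at 31.1 CPM in Ctrl against 17.5, 13.8 and 15.9 CPM after 1, 3 and 7 days. Log2 ratios to Ctrl were 1.42 [1.32 to 1.53], 1.63 [1.53 to 1.73] and 1.39 [1.28 to 1.49] for *PFKP*, against -0.82 [-0.98 to -0.67], -1.17 [-1.34 to -1.0] and -0.97 [-1.14 to -0.80] for *PFKL*. The muscle-type gene *PFKM* was at 8.67, 5.19, 8.96 and 12.02 CPM, lower at 1-day and highest at 7-day. As a share of the 3 genes' UMIs, *PFKP* went from 45.7% in Ctrl to 79.7%, 81.9% and 75.8%, and *PFKL* from 42.5% to 15.6%, 11.0% and 13.8%. The difference was largely in place at 1-day and was also seen in G1 cells, where *PFKP* held 43.3%, 81.0%, 82.9% and 74.7%.

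**Figure D3:**
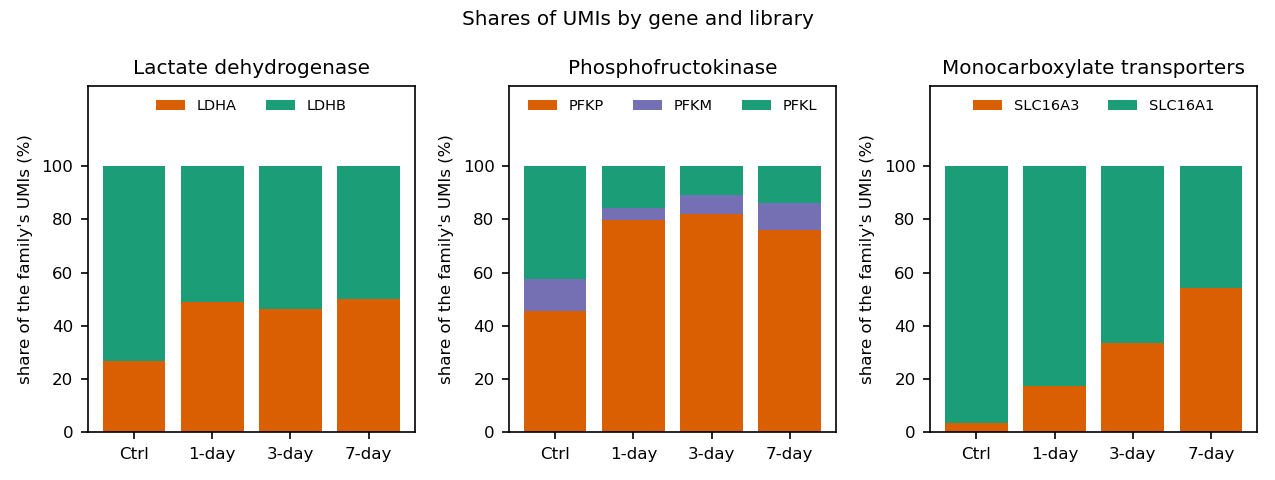
Stacked bars of the share of UMIs (%) taken by each gene of the lactate dehydrogenase, phosphofructokinase and monocarboxylate transporter members in Ctrl and at 1, 3 and 7 days. *LDHA* and *PFKP* reach most of their gain by 1-day (48.8% and 79.7%), while *SLC16A3* gains at each time, to 54.2%.

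Enzymes of the middle and lower steps differed less from Ctrl. *ALDOA*, the main aldolase, was at 566, 540, 439 and 395 CPM, and *TPI1*, triosephosphate isomerase, at 665, 561, 570.0 and 497 CPM in Ctrl and at 1, 3 and 7 days. *GAPDH* was at 2567, 2406, 1975 and 2142 CPM, with log2 ratios to Ctrl of -0.09, -0.38 and -0.26. *PGK1* was at 91.7, 89.7, 102 and 114 CPM, *PGAM1* at 256, 270.3, 280 and 259 CPM, and *ENO1* at 499, 476, 448 and 444 CPM. None of these 6 passed 1.5-fold at any time, although *TPI1* was at -0.72 at 7-day in G1 cells. Processed pseudogenes are known for several of these enzymes, *GAPDH* above all, so that part of their reads may have been dropped or assigned elsewhere in counting.

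*PKM*, pyruvate kinase, was the one counted enzyme after phosphofructokinase that passed 1.5-fold. It was at 771 CPM in Ctrl against 1324, 1188 and 1207 CPM after 1, 3 and 7 days, with log2 ratios of 0.78 [0.76 to 0.80], 0.62 [0.60 to 0.65] and 0.65 [0.62 to 0.67]. The 3-day value lies close to the 1.5-fold limit and fell to 0.56 in the lowest alternative. The 3′ counts do not separate the M1 and M2 splice forms of this gene.

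The minor isoenzymes of aldolase and enolase were rare but higher late. *ALDOC*, known from brain, was at 0.767 [0.486 to 1.15], 0.850 [0.565 to 1.23], 1.87 [1.43 to 2.40] and 2.44 [1.87 to 3.13] CPM. *ENO2*, the neuron-specific enolase, was at 0.333 [0.160 to 0.613], 0.334 [0.167 to 0.597], 1.40 [1.02 to 1.87] and 4.57 [3.78 to 5.48] CPM. Its 7-day ratio of 3.78 [2.85 to 4.87] rests on 10 UMIs in Ctrl and 116 at 7-day. Even so, *ENO2* remained 1.02% of the enolase UMIs of the pair at 7-day, and *ALDOC* 0.615% of the aldolase UMIs.

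Of the enzymes that set fructose 2,6-bisphosphate, the activator of phosphofructokinase, *PFKFB3* was at 49.3, 74.5, 55.7 and 55.6 CPM and peaked at 1-day. Its 1-day ratio of 0.59 [0.50 to 0.69] lies at the 1.5-fold limit and was under it in 4 of 10 alternatives. *PFKFB4* stayed between 2.88 and 4.49 CPM.

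At the branch to lactate the 2 dehydrogenase genes differed from Ctrl in opposite directions. *LDHA* (chromosome 11, 18394560 to 18408425, plus strand), whose subunit favours the making of lactate, was at 198 CPM in Ctrl, then 355, 259 and 275 CPM after 1, 3 and 7 days. *LDHB* (chromosome 12, 21635342 to 21757857, minus strand), whose subunit favours the return to pyruvate, was at 539, 372, 301 and 274 CPM. Log2 ratios to Ctrl were 0.84 [0.79 to 0.88], 0.38 [0.34 to 0.43] and 0.47 [0.42 to 0.52] for *LDHA*, and -0.53 [-0.57 to -0.50], -0.84 [-0.87 to -0.80] and -0.97 [-1.02 to -0.93] for *LDHB*. The *LDHA* share of their UMIs was 26.9% [26.3 to 27.5] in Ctrl and 48.8% [48.2 to 49.4], 46.2% [45.5 to 46.9] and 50.1% [49.3 to 50.9] after TGF-β1. The share was near the same at all 3 treated times, though the total of the pair was 737, 727, 560 and 549 CPM. Both genes were lower at 3 and 7 days than at 1-day. *PDK1*, the kinase that holds pyruvate back from the mitochondria, was at 3.77 [3.11 to 4.53], 2.06 [1.60 to 2.62], 3.14 [2.56 to 3.82] and 3.27 [2.60 to 4.05] CPM.

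The genes of the oxygen-sensing machinery differed in timing. *HIF1A* (chromosome 14, 61695513 to 61748259, plus strand) was at 35.2 CPM in Ctrl, then 43.9, 56.0 and 77.8 CPM after 1, 3 and 7 days, with log2 ratios of 0.32 [0.20 to 0.43], 0.67 [0.56 to 0.78] and 1.14 [1.03 to 1.25]. *EPAS1* (chromosome 2, 46293667 to 46386697, plus strand) was at 26.4, 82.8, 31.4 and 20.7 CPM, with log2 ratios of 1.65 [1.53 to 1.76], 0.25 [0.11 to 0.39] and -0.35 [-0.51 to -0.19]. The *HIF1A* level was thus higher at each later time, and that of *EPAS1* stood out at 1-day only and was below Ctrl by 7-day. In cells called G1 the 1-day ratio of *EPAS1* was 1.63 and the 7-day ratio of *HIF1A* 1.33.

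Among the prolyl hydroxylases, *EGLN3* (PHD3), a hydroxylase that is itself a HIF target, was at 1.70 CPM in Ctrl, then 12.7, 6.94 and 4.49 CPM after 1, 3 and 7 days. It was highest at 1-day as *EPAS1* was, but at 7-day it was still above Ctrl, with log2 ratios of 2.90 [2.48 to 3.35], 2.03 [1.58 to 2.50] and 1.40 [0.91 to 1.91]. *EGLN1* (PHD2), the main hydroxylase of HIF-1α, was at 25.1, 19.97, 31.3 and 29.7 CPM and did not pass 1.5-fold against Ctrl.

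**Figure D4:**
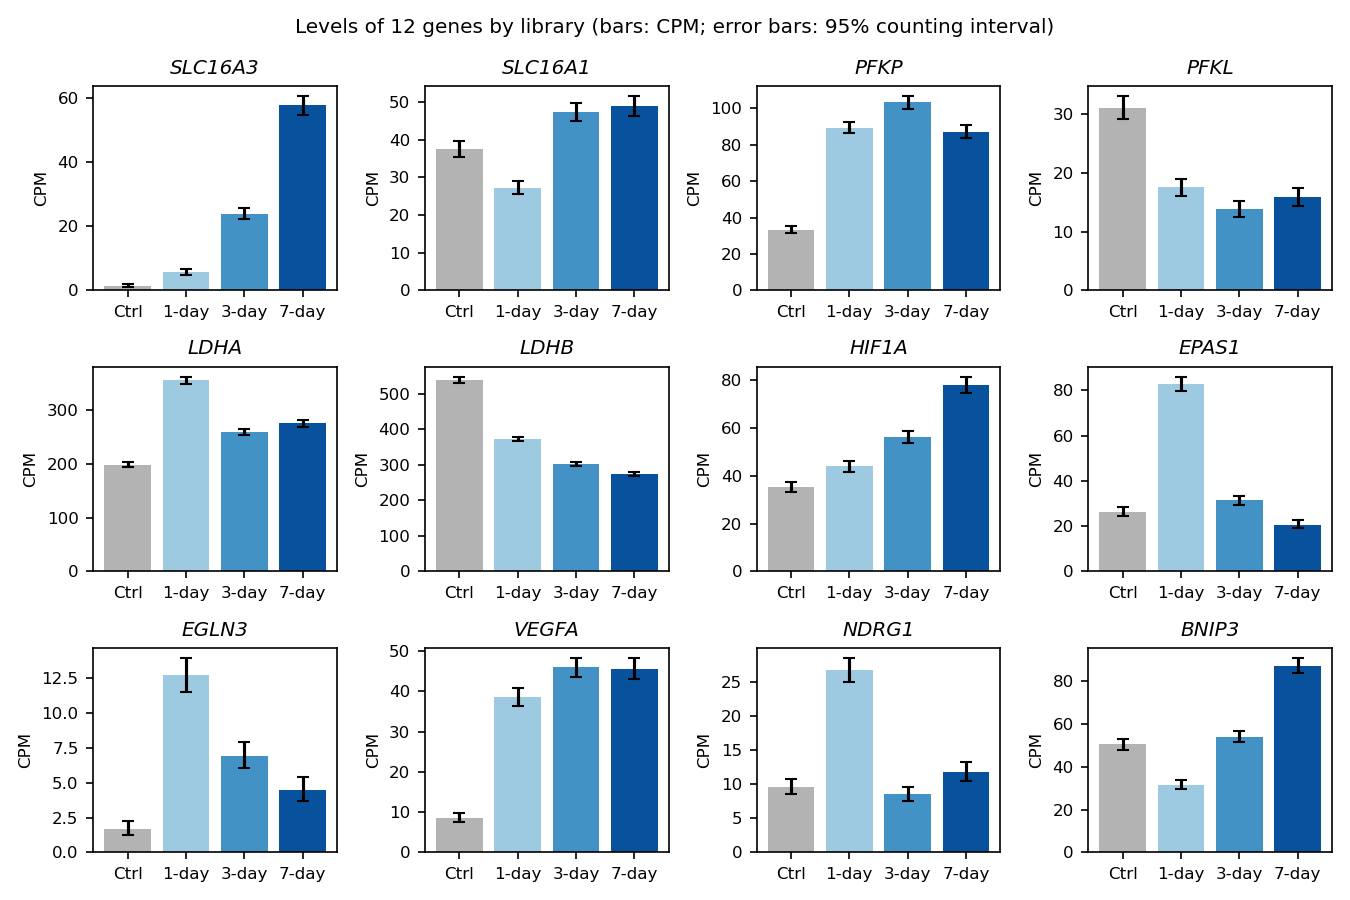
Level in CPM (bars from 0, with 95% counting intervals) of 12 members in each of the 4 libraries. *EPAS1*, *EGLN3* and *NDRG1* are highest at 1-day (82.8, 12.7 and 26.7 CPM), whereas *HIF1A*, *BNIP3* and *SLC16A3* are highest at 7-day (77.8, 87.2 and 57.7 CPM).

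The other hypoxia response genes together were at 288 CPM in Ctrl against 390, 388 and 460 CPM after 1, 3 and 7 days. Of the 9 counted, 4 were higher and 1 lower at 1-day, 4 and 1 at 3-day, and 6 and 2 at 7-day, beside 16.6% and 19.4%, 18.8% and 12.5%, and 21.5% and 10.8% of all tested genes. *VEGFA*, the growth factor of blood vessels, was at 8.67, 38.5, 45.9 and 45.5 CPM, with log2 ratios of 2.15 [1.96 to 2.35], 2.41 [2.21 to 2.60] and 2.39 [2.20 to 2.59]. *P4HA2*, a collagen prolyl hydroxylase subunit, was at 5.60, 21.5, 21.1 and 21.9 CPM, and *BNIP3L*, a mitophagy receptor, at 15.4, 54.2, 46.2 and 51.9 CPM. These 3 genes were above Ctrl by 1-day and then changed by less than 1.5-fold between times.

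A second group of hypoxia genes was higher late. *ERO1A*, the oxidase that feeds disulfide bond formation in the endoplasmic reticulum, was at 46.2 CPM in Ctrl, then 65.1, 104 and 140.0 CPM after 1, 3 and 7 days, with a 7-day ratio of 1.60 [1.51 to 1.69]. *BNIP3*, the other mitophagy receptor, was at 50.5, 31.6, 53.8 and 87.2 CPM, lower than Ctrl at 1-day (-0.68 [-0.79 to -0.56]) and higher at 7-day (0.79 [0.69 to 0.88]). *P4HA1*, the sister subunit of *P4HA2*, was at 7.57, 7.53, 8.62 and 11.9 CPM and passed 1.5-fold at 7-day only (0.65 [0.39 to 0.90]). *ANKRD37*, a small ankyrin-repeat gene known as a HIF target, was at 2.53 [2.00 to 3.17], 2.67 [2.14 to 3.29], 4.85 [4.12 to 5.68] and 6.46 [5.51 to 7.53] CPM. The paired genes *BNIP3* and *BNIP3L*, and *P4HA1* and *P4HA2*, thus followed different time courses, one early and one late in each pair.

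*NDRG1*, a differentiation and stress gene, was higher at 1-day alone, at 9.60, 26.7, 8.49 and 11.8 CPM, with a 1-day ratio of 1.47 [1.28 to 1.67]. At 3-day the interval of its ratio to Ctrl included 0 (-0.18 [-0.42 to 0.07]), and at 7-day the ratio was 0.30 [0.06 to 0.54], or 0.64 in G1 cells. The remaining genes were lower by 7-day or absent. *ADM*, which encodes the vasodilator adrenomedullin, was at 59.9, 43.5, 33.8 and 33.7 CPM, with a 7-day ratio of -0.83 [-0.95 to -0.71]. *CA12*, a membrane carbonic anhydrase, was at 81.7, 99.0, 61.4 and 49.4 CPM, with a 7-day ratio of -0.72 [-0.82 to -0.63]. *CA9*, the carbonic anhydrase often used to mark hypoxia, gave 0 UMIs in every library, and a count of 0 allows up to 3 UMIs, or 0.091 to 0.118 CPM.

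The thinned share of cells with a UMI gives how widely a gene was detected. It rises with the level itself, so it does not measure spread over cells apart from level. Cells were thinned to 18000 UMIs apiece, leaving 844, 900, 677 and 549 cells of Ctrl, 1-day, 3-day and 7-day. No cell type in these libraries lacks the genes, so background detection from free RNA could not be measured. *SLC16A3* was detected in 2.13% [1.27 to 3.35] of Ctrl cells and in 8.0%, 26.1% and 49.5% [45.3 to 53.8] of the treated ones, against 3.11%, 14.1%, 47.0% and 68.4% without thinning. *PFKP* was found in 42.7%, 75.3%, 80.4% and 77.6% of cells, *VEGFA* in 11.6%, 44.1%, 51.6% and 45.5%, and *EGLN3* in 2.01%, 17.8%, 10.8% and 8.74%. *NDRG1* was detected in 11.0%, 34.7%, 14.2% and 13.3%, and *EPAS1* in 35.8%, 71.7%, 41.1% and 30.1%, so that both were detected in more cells at 1-day. In all 4 libraries *GAPDH* and *PKM* were present in 100% of the thinned cells. Without thinning, the 10 cells richest in *SLC16A3* held 54.8% of its 42 UMIs in Ctrl and 12.4% of its 1464 UMIs at 7-day. Such a share is larger where UMIs are few. For *NDRG1*, likewise without thinning, the top 10 cells held 21.2% in Ctrl, 9.10% at 1-day and 25.7% at 7-day.

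**Figure D5:**
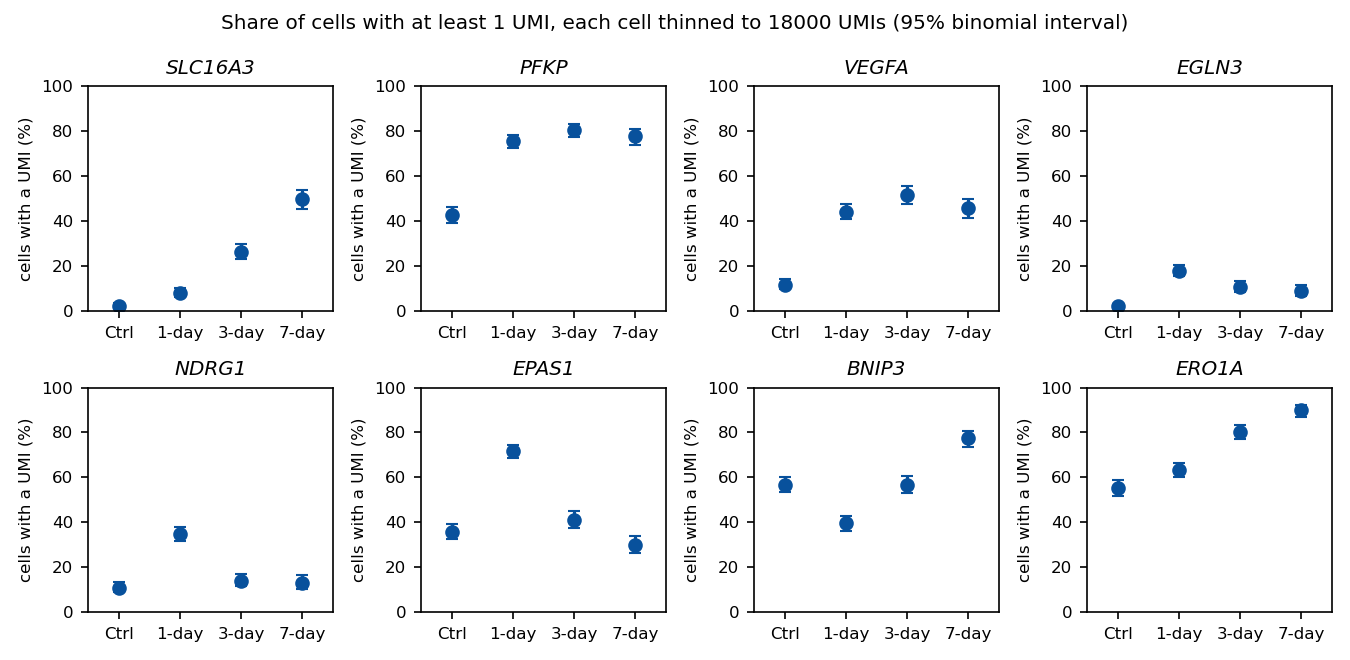
Share of cells with at least 1 UMI (points, %, with 95% binomial intervals) for 8 members in each library after each cell was thinned to 18000 UMIs. *SLC16A3* goes from 2.13% to 49.5%, *EPAS1* and *NDRG1* are highest at 1-day, and *BNIP3* is lowest at 1-day (39.6%) and highest at 7-day (77.4%).

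Correlations across single cells were computed for the abundant members. For the 11 members with a mean of at least 1 thinned UMI in each library, the median Spearman correlation over their 55 pairs was 0.08 in 844 Ctrl cells, 0.14 in 900 1-day cells, 0.13 in 677 3-day cells and 0.09 in 549 7-day cells. The points of a library share its capture and depth, and these correlations are a description. How far sparse counts lower such values was not tested, and no value expected from counting noise was computed. *TPI1* and *GAPDH* had correlations of 0.40, 0.38, 0.43 and 0.37, and *GAPDH* and *LDHB* of 0.40, 0.41, 0.42 and 0.41. In G1 cells the median over pairs was 0.07, 0.14, 0.15 and 0.12.

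Other genes of the same pathways, 107 of 109 listed symbols being in the matrices and 72 above 5 CPM, gave 24 higher and 13 lower at 7-day against Ctrl. These are 33.3% and 18.1% of the 72, beside 21.5% and 10.8% of all tested genes. The same shares of all genes stand beside the counts of the smaller lists below, which are short. *ANGPTL4*, which encodes an inhibitor of lipoprotein lipase, was at 5.00, 263, 222 and 176 CPM, with a 7-day log2 ratio of 5.14. *MPC2*, a subunit of the mitochondrial pyruvate carrier, was at 764, 286, 162 and 140.4 CPM, with a 7-day ratio of -2.44. Of the 10 counted genes of pyruvate entry to mitochondria 1 was higher (*PDP1*) and 3 were lower (*MPC1*, *MPC2* and *PDHX*), and of the 9 HIF pathway regulators 0 were higher and 1 was lower (*CITED2*), these being named, other than *MPC2*, after their values were seen. Further hypoxia-inducible genes, 30 counted, had 15 higher and 3 lower (*DDIT4*, *AK4* and *FAM162A*, likewise). The glycolysis isozymes and side enzymes had 5 of 10 higher, which are *HKDC1*, *BPGM*, *PFKFB2*, *PGM2L1* and *MINPP1*, and 1 lower, *GPD1L*. Of the 5 counted SLC2A genes, sugar transporters outside the member list, *SLC2A8* was at 24.4, 24.2, 27.1 and 25.7 CPM. *SLC2A11* was at 27.3, 20.7, 17.7 and 19.6 CPM, lower than Ctrl at 3-day (-0.62) but not past 1.5-fold at 7-day (-0.48). The other 3 were higher at 7-day. These, singled out after their values were seen, are *SLC2A5*, known as a fructose transporter (3.93, 25.3, 22.7 and 25.1 CPM), *SLC2A6* (2.23, 7.98, 23.96 and 44.4 CPM) and *SLC2A12* (2.93, 9.17, 14.1 and 15.3 CPM), which were above Ctrl at each time while *SLC2A1* was lower at 3 and 7 days by less than 1.5-fold.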

How the data were processed

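Single-cell RNA-seq of OVCA420 cells gave 4 libraries, grouped by the labels as Ctrl, 1-day, 3-day and 7-day. The deposited values are UMI counts per gene and cell, not normalized. Per the submitters' processing notes the authors made them with Cell Ranger 2.0.1 on GRCh38. Each matrix as analysed here ends inside a cell, and that cell was left out. This gave 3170 of 10710 listed cells, the first in barcode order.

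Cells with more than 200 genes and at most 20% mitochondrial UMIs were retained (3144, with 26 removed). Scrublet in scanpy 1.11.5 marked 38 doublets (1.21%), which were retained. Phases used Seurat 5.3.0 gene lists. UMIs were summed per library and scaled to CPM with Poisson intervals, and ratios and shares had Clopper-Pearson intervals (scipy 1.17.1, numpy 2.4.6, pandas 2.3.3, Python 3.11.15, R 4.3.3). Ratio intervals were tested only on simulated Poisson counts, which is the case they assume, so that test does not cover spread between cells or cultures. Genes with a mean of at least 5 CPM were counted. All 39 members are named, with the 2 highest and 2 lowest 7-day ratios among the other listed pathway genes. Some of the latter are not reported here. The members and lists were chosen with earlier results of these data known. Alternatives were other mitochondrial limits, doublets left out, median-of-ratios scaling, the mean over cells, thinning to 18000 UMIs, G1 cells, each part of the cells on its own, a total without mitochondrial and ribosomal genes, other filters and a 2-fold limit. Gene positions are from GENCODE release 44, promoters from RefSeq (GRCh38.p14). ELOB and ELOC were not matched by symbol.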

Additional observations from a re-analysis of the deposited data

Results flagged for a closer look

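A pair of genes, *BNIP3* and *HK2*, passed 1.5-fold on opposite sides of Ctrl at different times, with intervals that left out 0. *BNIP3* was lower than Ctrl at 1-day, with a log2 ratio of -0.68, and higher at 7-day, with 0.79. *HK2* was at -1.21 at 1-day and 1.31 at 7-day, with intervals of -2.46 to -0.06 and 0.53 to 2.13, from 10 to 44 UMIs per library. Its 1-day ratio ran from -3.68 to -0.21 over the alternatives, the ends being the second and the first part of the cells. Cells with an *HK2* UMI were 1.18% of Ctrl and 1.07% of 1-day cells, and a Ctrl cell held up to 6 UMIs. The difference between the time points was not tested, since each is 1 library.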

How the results depend on the processing

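No paired analysis was possible because each time point has 1 library and the result comes from no test. No member's ratio past 1.5-fold to Ctrl changed sign under an alternative, and 48 of the 55 were past it under all that gave a value. The 7 exceptions are *HK2* at each time, *PFKFB3* and *PDK1* at 1-day, and *PKM* and *ANKRD37* at 3-day. The 55 include ratios of members with a mean under 5 CPM. *SLC2A3* at 3-day is among the 48, but it rests on 3 UMIs in Ctrl and 1 at 3-day, and only 6 alternatives gave it a value. For *HK2* the 7-day ratio was 0.22 in G1 cells. At the 2-fold limit the members lower than Ctrl numbered 0, 1 and 0 at 1, 3 and 7 days, 3-day against 1-day had 1 higher and 2 lower, and 7-day against 3-day had 1 higher and 0 lower. At a mean of at least 20 CPM, 2 were lower at 1-day than Ctrl, 2 were lower at 3-day than 1-day, and 1 was lower at 7-day than 3-day. With no filter on low values, 10 were higher at 3-day than 1-day and 4 at 7-day than 3-day. Of 7-day against 3-day, 4 were higher in the second part of the cells, and 1 was lower after thinning, in the first and in the second part of the cells, and 0 in G1 cells. Only counts that moved by more than 1.5-fold or to 0 are given here. Shares of all genes were not computed at these settings, so these counts have no background beside them. The summed enzyme level kept its direction under these alternatives, though not without *GAPDH*, where it was 0.07 at 3-day and 0.02 at 7-day. Its 1-day log2 ratio was 0.14 with median-of-ratios scaling, 0.08 as a mean over cells, 0.06 in G1 cells, 0.06 and 0.04 in the first and second part of the cells, and 0.02 without mitochondrial and ribosomal genes in the total. At 3-day these were -0.09, -0.09, -0.12, -0.14, -0.10 and -0.18, with -0.15 at the 10% mitochondrial limit. At 7-day they were -0.16, -0.08, -0.11, -0.12, -0.08 and -0.16, with -0.13 at the 10% limit and -0.12 after thinning. The cause of these shifts was not tested. Over all members, 950 of 1113 alternative ratios to Ctrl lay within the counting interval of the ratio, and 28 of 48 alternative isozyme shares lay within theirs. Depth limits *SLC2A3*, *HK2* and *CA9*, and no value measures the spread between cultures.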
